A study of Chlamydomonas reinhardtii with 6 samples.

Results

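The 5 genes described here encode enzymes by which Chlamydomonas reinhardtii, a unicellular green alga, uses acetate and runs the glyoxylate cycle. They are ICL1 (Cre06.g282800, isocitrate lyase), MAS1 (Cre03.g144807, malate synthase), PCK1 (Cre02.g141400, phosphoenolpyruvate carboxykinase), ACS3 (Cre07.g353450, acetyl-CoA synthetase) and CIS2 (Cre03.g149100, citrate synthase). They were taken by these identifiers from a table of 17741 genes. No measured value entered the rule, but the enzymes were chosen with earlier results of these data known. All 5 were among the 14136 genes that passed the filter on low counts and were tested. The symbols are the usual names of these loci, and the first digits of each identifier give its chromosome.

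The RNA-seq experiment set 1 isolate that grows as cell groups, from a line kept with rotifers, against 1 isolate that grows as single cells, from a line kept without them. Both lines descended from the wild-type strain cc1009. Each isolate was grown in chemostats for 10 days and then for 5 days with rotifers (Brachionus calyciflorus, a grazing predator) at 80 µM nitrogen, at a nitrogen supply lowered to 40 µM, or as the control at 80 µM without rotifers. Each treatment was run in 3 replicate chemostats whose RNA was pooled, which gave 6 libraries. The sources used here differ on the total number of chemostats, so the number behind each library is not certain. The libraries were 3 of cell groups and 3 of single cells. With 1 library for each condition, the 3 treatments stood in as replicates of a morphotype and the 2 morphotypes as replicates of a treatment. The p-values of the main fit therefore rest on the spread left among these libraries once treatment and morphotype are fitted. Where a treatment ratio differs between the morphotypes, that difference is part of this spread. Each morphotype is represented by 1 isolate. Whether the medium supplied acetate is not given in the sources used here.

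The glyoxylate cycle is a shortcut through the tricarboxylic acid cycle that skips the steps releasing carbon dioxide, so that cells can build sugars and other compounds from acetate. Acetyl-CoA synthetase activates acetate, citrate synthase joins the acetyl-CoA to oxaloacetate, isocitrate lyase splits isocitrate into succinate and glyoxylate, and malate synthase joins glyoxylate to a further acetyl-CoA. Phosphoenolpyruvate carboxykinase then turns oxaloacetate into phosphoenolpyruvate, the entry to gluconeogenesis. Isocitrate lyase and malate synthase are the enzymes particular to the cycle, and Chlamydomonas that lacks isocitrate lyase cannot live on acetate in the dark.

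Libraries held from 5453218 to 9054895 counts on genes, and the 5 genes together took from 0.109% to 0.376% of them. Levels are given as CPM, the counts of a gene relative to the scaled total of its library (TMM scaling, based on a trimmed mean of log ratios between libraries), with 95% exact Poisson intervals that cover counting error only. By the study's methods, a larger share of the reads from the rotifer libraries did not map to the alga, and its part in the values was not tested. Cre06.g278222, an abundant transcript given for reference, had 6822, 4513 and 6886 CPM in cell groups under rotifer, low nitrogen and control, against 5009, 5342 and 3731 CPM in single cells. It was thus lowest in the single-cell control library, while in cell groups control was its highest library, only just above rotifer. In bulk RNA, fewer cells that express a gene and less of its RNA per cell cannot be told apart.

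Isocitrate lyase and malate synthase, the pair that defines the cycle, differed between the morphotypes in the place of the control, which was the lowest library of single cells and the highest of cell groups. ICL1 had 307, 163 and 426 CPM in cell groups under rotifer, low nitrogen and control, against 956, 866 and 154 CPM in single cells. In single cells both treatment libraries thus stood far above the control library, whereas in cell groups both stood below it, and rotifer lay above low nitrogen in both morphotypes. MAS1 had 333, 203 and 437 CPM in cell groups under rotifer, low nitrogen and control, against 510, 382 and 102 CPM in single cells. Its treatment libraries were likewise above the control in single cells and below it in cell groups. For both genes the lowest library of all 6 was the single-cell control and the highest was the single-cell rotifer library, so the levels of the morphotypes overlapped.

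PCK1, the gluconeogenic enzyme, had 654, 171 and 588 CPM in cell groups under rotifer, low nitrogen and control, against 1999, 1035 and 601 CPM in single cells. The control libraries of the morphotypes lay side by side with overlapping intervals, whereas the low-nitrogen library of cell groups was the lowest of all 6 and the rotifer library of single cells the highest. ACS3, the acetate-activating enzyme, had 194, 170 and 310 CPM in cell groups under rotifer, low nitrogen and control, against 329, 439 and 250 CPM in single cells. Here too the control was the highest library of cell groups and the lowest of single cells. CIS2, the citrate synthase, had 391, 273 and 419 CPM in cell groups under rotifer, low nitrogen and control, against 405, 459 and 374 CPM in single cells. It varied the least, and its low-nitrogen libraries lay at the ends of the order, highest in single cells and lowest in cell groups.

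**Figure D1:**
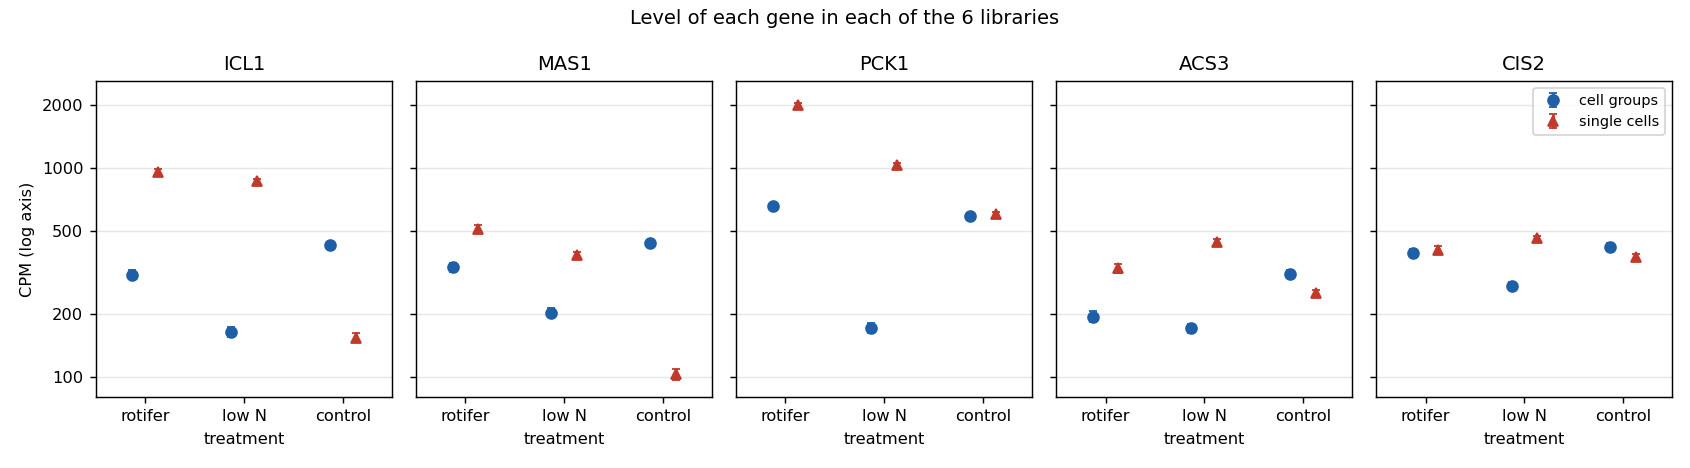
Level of each of the 5 genes in each library, in CPM on a log axis, for cell groups (blue circles) and single cells (red triangles) under rotifer, low nitrogen and control, with 95% Poisson intervals of the counts, mostly smaller than the points. In single cells ICL1 stood at 956 and 866 CPM under the treatments and at 154 CPM in control, whereas in cell groups the control, at 426 CPM, was the highest library.

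The 5 genes differed in how far they varied between libraries. The highest library exceeded the lowest 11.7-fold for PCK1, 6.22-fold for ICL1 and 4.98-fold for MAS1, but 2.58-fold for ACS3 and 1.68-fold for CIS2. A range of at least 4-fold was thus seen for 3 of the 5 genes and for 23.0% of all tested genes. Within cell groups the range was 3.83-fold for PCK1, 2.62-fold for ICL1 and 2.16-fold for MAS1, against 3.32-fold, 6.22-fold and 4.98-fold for the same genes in single cells. When the 6 libraries were ordered by level for each gene, 6 of the 25 neighbouring pairs had overlapping counting intervals. For ICL1 this was the pair of low nitrogen in cell groups and control in single cells, for PCK1 that of the 2 controls, and for ACS3 that of rotifer in single cells and control in cell groups. The other 3 pairs were in CIS2. Without a replicate library of any condition, these intervals leave out the variation between cultures.

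In single cells, all 5 genes had a higher level under rotifers than in control, although the size differed widely. ICL1 was 6.22-fold higher (counting interval 5.87 to 6.59), MAS1 4.98-fold (4.63 to 5.36) and PCK1 3.32-fold (3.22 to 3.43). ACS3 was 1.32-fold and CIS2 1.08-fold higher. At least a 2-fold higher level was thus reached by 3 of the 5 genes, and by 11.0% of all tested genes in the same pair of libraries. In cell groups, rotifers went with values on either side of the control. ICL1 had 0.721 times the control level, MAS1 0.762 times, ACS3 0.624 times and CIS2 0.932 times, whereas PCK1 was 1.11-fold higher. None of the 5 genes was at least 2-fold lower, against 3.64% of all tested genes. A level above control in single cells and below control in cell groups was seen for 4 of the 5 genes and for 20.4% of all tested genes, and for CIS2 both ratios lay close to 1.

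Under low nitrogen, the 5 genes were again all higher than in control in single cells, and all lower than in control in cell groups. In single cells ICL1 was 5.64-fold higher (counting interval 5.33 to 5.96) and MAS1 3.73-fold (3.47 to 4.01), followed by ACS3 at 1.76-fold, PCK1 at 1.72-fold and CIS2 at 1.23-fold. At least a 2-fold higher level was seen for 2 of the 5 genes and for 8.43% of all tested genes. In cell groups PCK1 was 3.45-fold lower, ICL1 2.62-fold lower and MAS1 2.16-fold lower than in control, whereas ACS3 was 1.82-fold and CIS2 1.54-fold lower. At least a 2-fold lower level was reached by 3 of the 5 genes, against 4.42% of all tested genes. All 5 genes lay above control in single cells and below it in cell groups, as did 24.8% of all tested genes. The rotifer and low-nitrogen ratios of a morphotype share 1 control library and are not separate signs of a response, and with 1 library per condition they carry no test. Between the treatments themselves, which involves no control library, ICL1 under low nitrogen had 0.530 times its rotifer level in cell groups and 0.907 times in single cells. For PCK1 these values were 0.261 times in cell groups and 0.518 times in single cells, and for MAS1 they were 0.608 times in cell groups and 0.749 times in single cells. ACS3 had 0.879 times its rotifer level in cell groups and 1.33 times in single cells, and CIS2 had 0.698 times in cell groups and 1.13 times in single cells, so that these 2 went opposite ways. At least 2-fold lower under low nitrogen than under rotifers were 1 of the 5 genes in cell groups, against 6.01% of all tested genes, and 0 of the 5 in single cells, against 7.75%. With DESeq2 size factors, PCK1 passed 2-fold in single cells too, at a log2 ratio of -1.01.

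**Figure D2:**
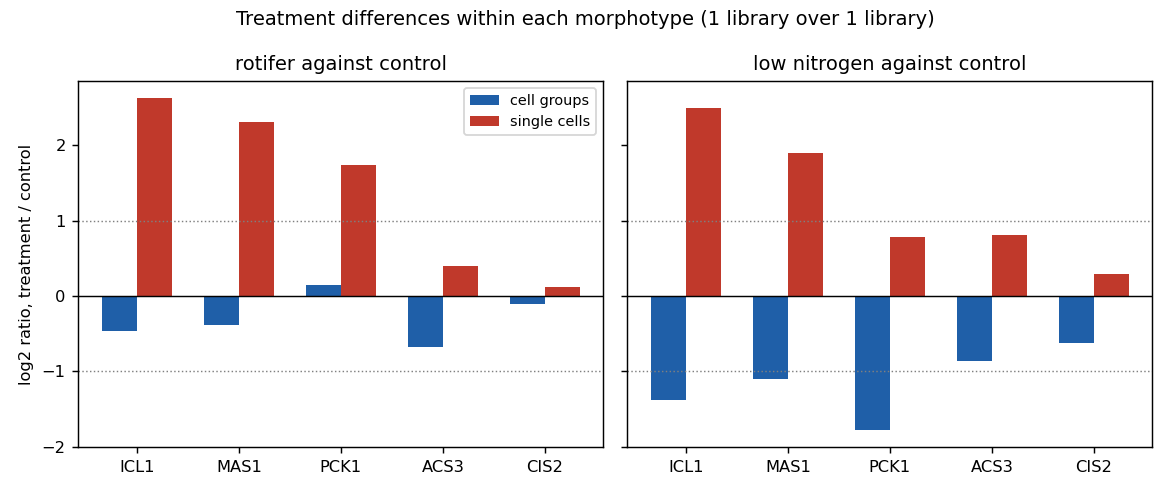
Log2 ratio of the rotifer (left) and low-nitrogen (right) library over the control library of the same morphotype for the 5 genes, with cell groups in blue, single cells in red and dotted lines at 2-fold. Single cells lay above 0 for every gene in both panels, and cell groups lay below 0 except for PCK1 under rotifers, at 0.15.

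The treatment ratios were then set against each other as the log2 ratio in cell groups minus that in single cells. Under rotifers this difference was -3.10 for ICL1, -2.70 for MAS1, -1.58 for PCK1, -1.07 for ACS3 and -0.22 for CIS2. Their median was -1.58, where all tested genes had a median of 0.05. Under low nitrogen it was -3.88 for ICL1, -3.00 for MAS1, -2.57 for PCK1, -1.67 for ACS3 and -0.91 for CIS2, with a median of -2.57 and a median of 0.02 over all tested genes. The order of the 5 genes was the same in both treatments, with the enzymes particular to the cycle first and the citrate synthase last. A difference of at least 2-fold in this direction was seen for 4 of the 5 genes under rotifers and for 11.7% of all tested genes. Under low nitrogen it was again 4 of the 5 genes, and 12.0% of all tested genes. Both sets of differences rest on the same pair of control libraries, and each of the 4 conditions in a difference has 1 library, which leaves no residual degrees of freedom for a test.

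**Figure D3:**
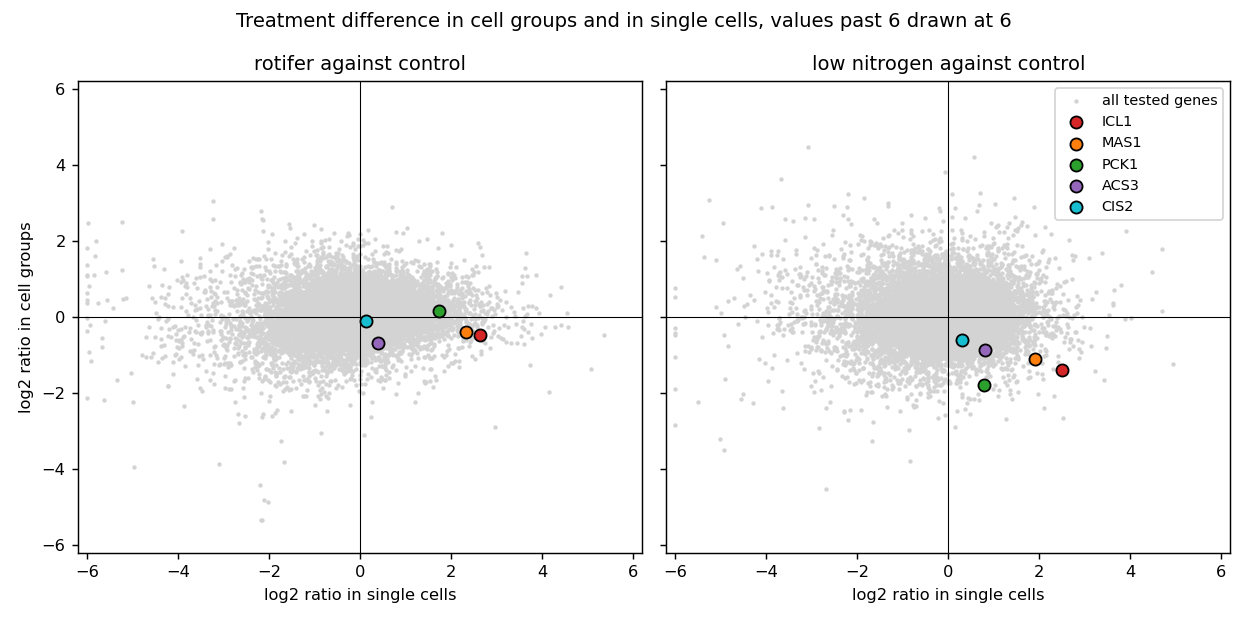
Log2 ratio of treatment over control in cell groups (vertical) against that in single cells (horizontal) for 14136 tested genes (grey) and the 5 enzymes (coloured), under rotifers (left) and low nitrogen (right). ICL1 and MAS1 lay at the right and below 0 in both panels, and all 5 enzymes lay to the right of 0 and below 0 under low nitrogen.

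The 2 morphotypes were then compared in a fit that also held treatment (edgeR quasi-likelihood test, Benjamini-Hochberg adjustment over all tested genes). None of the 5 genes passed an adjusted p of 0.05, where 7.62% of all tested genes did. PCK1 came closest, with a log2 fold change of -1.43 (SE 0.52, unadjusted p = 0.0294, adjusted p = 0.149), and it alone of the 5 had an unadjusted p under 0.05, which 25.1% of all tested genes had. With the Wald test of DESeq2 its adjusted p was 0.0167, and over all alternatives it ran from 0.00195 to 0.519. DESeq2 passed 1 of the 5 genes and 1732 of all 14136 tested genes, and limma passed 0 of the 5 and 1246 of all. The log2 fold change was -0.97 for ICL1 (SE 0.78, approximate 95% interval -2.51 to 0.57, edgeR adjusted p = 0.495). It was -0.61 for ACS3 (SE 0.37, edgeR adjusted p = 0.363) and -0.21 for CIS2 (SE 0.29, edgeR adjusted p = 0.708). For MAS1 it was 0.12 (SE 0.62, approximate 95% interval -1.10 to 1.34, edgeR adjusted p = 0.930). The levels of the morphotypes overlapped for all 5 genes, whereas they did not overlap for 30.6% of all tested genes.

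The large errors of ICL1 and MAS1 came with differences between morphotypes that changed direction over the treatments. Under rotifers all 5 genes were lower in cell groups, with log2 ratios of -1.64 for ICL1, -1.61 for PCK1, -0.76 for ACS3, -0.61 for MAS1 and -0.05 for CIS2. Under low nitrogen all 5 were lower again, with -2.60 for PCK1, -2.41 for ICL1, -1.36 for ACS3, -0.91 for MAS1 and -0.75 for CIS2. In control, MAS1 had a log2 ratio of 2.09, ICL1 of 1.47, ACS3 of 0.31 and CIS2 of 0.16, so that these 4 were higher in cell groups, and PCK1 had -0.03. At least 2-fold lower in cell groups were 2 of the 5 genes under rotifers, against 11.0% of all tested genes, and 3 of the 5 under low nitrogen, against 11.8%. At least 2-fold higher in control were 2 of the 5 genes, against 12.9% of all tested genes.

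The call for a difference between morphotypes turned on the control libraries. Without the control library of cell groups, ICL1 had a log2 fold change of -2.07 (edgeR adjusted p = 0.00196), PCK1 of -2.16 (adjusted p = 0.00195) and ACS3 of -1.12 (adjusted p = 0.0304). In that fit 14.7% of all tested genes passed. Without that of single cells, ICL1 had -2.03 (edgeR adjusted p = 0.00620) and PCK1 -2.11 (adjusted p = 0.00666), and 12.4% of all tested genes passed. Over all alternatives the adjusted p of ICL1 ran from 0.00196 to 0.974 and that of ACS3 from 0.0304 to 0.854. With treatment as a covariate, either fit takes the difference from rotifer and low nitrogen alone, so they are not separate results, and each has a single residual degree of freedom.

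**Figure D4:**
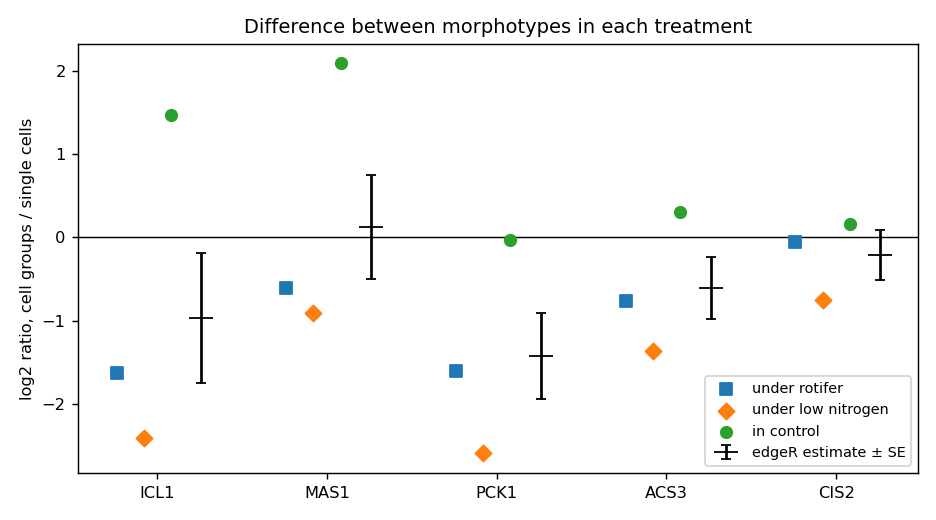
Log2 ratio of cell groups over single cells for each gene under rotifer (squares), low nitrogen (diamonds) and control (circles), with the edgeR estimate over all 6 libraries and its standard error in black. ICL1 ran from -2.41 under low nitrogen to 1.47 in control, and the estimates of ICL1 and MAS1 had the widest errors, at 0.78 and 0.62.

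The treatments were compared in the same fit with morphotype as a covariate. Against control, rotifers gave log2 fold changes of 0.66 for ICL1 (SE 0.90), 0.69 for MAS1 (SE 0.74), 0.78 for PCK1 (SE 0.60), -0.21 for ACS3 (SE 0.45) and -0.003 for CIS2 (SE 0.36). The adjusted p from edgeR ran from 0.737 to 0.999. Low nitrogen against control gave 0.26 for ICL1 (SE 0.94), 0.17 for MAS1 (SE 0.75), -0.55 for PCK1 (SE 0.62), -0.05 for ACS3 (SE 0.46) and -0.15 for CIS2 (SE 0.36), with adjusted p from 0.915 to 0.991. In either comparison, none of the 5 genes and 0% of all tested genes passed with edgeR. At an unadjusted p under 0.05 there were again 0 of the 5 genes, but 1019 of all genes for rotifers and 816 for low nitrogen. DESeq2 passed 85 and 49 genes in these comparisons and limma 0 in each, and none of the 5 was among them. Without the control library of cell groups, the single-cell control was the only control. The rotifer log2 fold change was then 2.88 for ICL1, 2.43 for MAS1 and 2.04 for PCK1. The low-nitrogen one was 2.33 for ICL1, 1.84 for MAS1 and 0.57 for PCK1. A lone control library is fitted exactly, so the residual spread holds no variation of the control. That spread comes from rotifer and low nitrogen alone, with a single residual degree of freedom. Calls in that fit are therefore not read as tests, although 3 of the 5 genes and 7.76% of all tested genes passed for rotifers. Without the control library of single cells, the cell-group control was the only control. The rotifer log2 fold change was then -0.65 for ICL1, -0.47 for MAS1 and -0.08 for PCK1. The low-nitrogen one was -1.18 for ICL1, -1.03 for MAS1 and -1.52 for PCK1.

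Ratios between the counts of 2 genes in the same library do not depend on how libraries are scaled. Of the 10 possible ratios among the 5 genes, 2 did not overlap between the morphotypes, and both involved MAS1. Among all ratios of 2 tested genes (counts + 0.5) 31.7% did not overlap, so the count for the 5 genes was not above that share. The ratio of ICL1 to MAS1 counts was 0.922, 0.804 and 0.974 in cell groups under rotifer, low nitrogen and control, against 1.87, 2.27 and 1.50 in single cells. Every cell group library thus had fewer counts of isocitrate lyase than of malate synthase, and every single-cell library had more. The counts were not corrected for transcript length, so a ratio of 1 does not mark equal numbers of transcripts. The ratio of MAS1 to PCK1 counts was 0.510, 1.19 and 0.743 in cell groups under rotifer, low nitrogen and control, against 0.255, 0.369 and 0.170 in single cells. These ratios were picked out of the 10 for not overlapping and carry no test. The ratio of ACS3 to CIS2 was the steadiest, with a range of 1.93-fold over the 6 libraries.

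**Figure D5:**
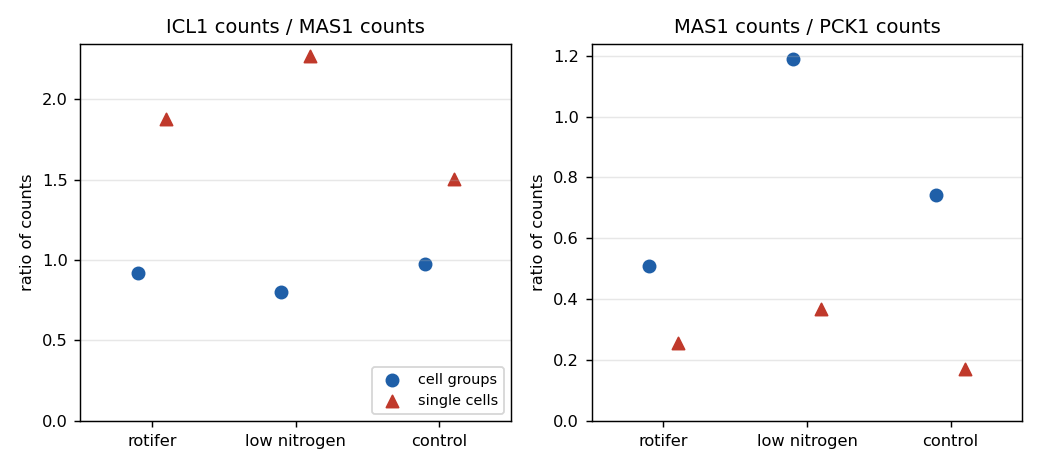
Ratio of ICL1 to MAS1 counts (left) and of MAS1 to PCK1 counts (right) in cell groups (blue circles) and single cells (red triangles) under rotifer, low nitrogen and control, on axes that start at 0. Cell groups lay between 0.804 and 0.974 on the left and single cells between 1.50 and 2.27.

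Across the 6 libraries, Pearson's r of log2(CPM + 0.5) was positive for all 10 pairs of the 5 genes. It ran from 0.474 for MAS1 and ACS3 to 0.849 for ICL1 and MAS1. These values describe 6 points that share their libraries and scaling. Among 9802 tested genes whose log2 level ranged over at least 1, the profiles most like ICL1 were those of Cre01.g039850 (r = 0.997), Cre13.g590500 (r = 0.991), Cre05.g247950 (r = 0.991), Cre07.g338451 (r = 0.985) and Cre09.g411300 (r = 0.983). Of these, Cre13.g590500 ran from 264 to 2473 CPM, whereas Cre01.g039850 stayed between 8.67 and 18.0 CPM. The profiles most like the mean of the 5 genes, each scaled to the same spread, were those of Cre01.g012400 (r = 0.998), Cre02.g076250 (r = 0.982), Cre16.g648850 (r = 0.979), Cre06.g256600 (r = 0.975) and Cre04.g228050 (r = 0.970). Of these, Cre02.g076250 ran from 208 to 651 CPM and Cre16.g648850 only from 0.12 to 3.03 CPM. Both lists were picked as the highest of many correlations over 6 points. High values of r are thus built into them, and shared regulation was not tested. The reference table used here pairs none of these identifiers with a gene name.

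A further 24 genes had been listed by identifier to cover other steps of acetate activation, the tricarboxylic acid cycle and malate dehydrogenases, candidate acetate carriers and reactions around phosphoenolpyruvate. All 24 were tested, and they are given by identifier since the reference table names none of them. Between the morphotypes 3 of the 24 were lower with edgeR, against 2.86% of all tested genes, and 0 were higher, while 9 of the 24 had an unadjusted p under 0.05, against 25.1% of all tested genes. Their estimates came with a median log2 fold change of -0.48, against -0.61 for the 5 enzymes and 0.01 for all tested genes. Cre09.g396650 had 26.8, 9.88 and 30.4 CPM in cell groups under rotifer, low nitrogen and control, against 80.3, 32.1 and 153 CPM in single cells (edgeR adjusted p = 0.0134). Cre09.g396700 had 3.25, 1.45 and 1.60 CPM in cell groups under the same treatments, against 17.8, 8.83 and 56.5 CPM in single cells (adjusted p = 0.0222). Both were highest in the single-cell control library, where ICL1 and MAS1 were lowest. Cre16.g673852 had 0, 0 and 5 counts in cell groups, against 29, 47 and 45 counts in single cells (edgeR adjusted p = 0.0447). All its cell group libraries lay under the 1.30 CPM of the filter, which it met through single cells alone. Its call is among the 3 above, and no conclusion is drawn from it. None of the 24 passed between rotifer and control or between low nitrogen and control, where 0 of all tested genes passed with edgeR. An unadjusted p under 0.05 was seen for 1 and 4 of the 24, against 1019 and 816 of all 14136 tested genes. Their median log2 ratio under low nitrogen was -0.48 in cell groups and 0.07 in single cells, against -1.11 and 0.81 for the 5 enzymes in the same morphotypes.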

How the data were processed

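Total RNA was sequenced from 6 libraries, 1 for each morphotype and treatment. By the methods, the authors checked reads with FastQC, aligned them to the Chlamydomonas genome (version 5.0, hisat2) and counted reads per gene (HTSeq). The deposited counts are whole numbers without normalization. Versions and the strand setting are not given in the sources used here, so reads of antisense or overlapping genes may be included. The authors also deposited normalized values on a log2 scale and a table of their own fold changes and adjusted p-values, made with DESeq2, and neither entered a result. In the normalized table, the average named for each morphotype equals the mean of the other one's libraries in all 16528 genes (within 0.0001). In the count table both averages equal the mean of the libraries they name in all 17741 genes. Library labels were taken as deposited.

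The filter (filterByExpr) asked for 1.30 CPM, equal to 10 counts at median depth, in 3 or more libraries, and for a total of 15 counts. Genes that passed were tested with the quasi-likelihood test of edgeR 4.0.16 in R 4.3.3 after TMM scaling, with treatment and morphotype in 1 fit and Benjamini-Hochberg adjustment. Standard errors were derived from the test statistic. A log2 ratio of 2 libraries was taken on CPM + 0.5. CPM relate to the counts of the tested genes times the TMM factor. DESeq2 1.42.0 and limma 3.58.1 served as alternatives. The genes named were the 5 enzymes, any of the 24 listed genes that passed, and the 5 most similar profiles to ICL1 and to the mean of the enzymes. Enzymes and lists were chosen with earlier results of these data known. The RefSeq table (assembly Chlamydomonas_reinhardtii_v5.5) held all listed loci but gave no symbols, and its coordinates were not used, since the reads were mapped to a genome named otherwise.

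In a simulation of 14136 genes (dispersion 0.119), 200 were changed 4-fold. The fit recovered 163 of them between morphotypes with 5 false calls, 63 between rotifer and control with 1 and 86 between low nitrogen and control with 1.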

Additional observations from a re-analysis of the deposited data

Results flagged for a closer look

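The response to a treatment ran in opposite directions in the 2 morphotypes for 5 genes under low nitrogen and for 4 under rotifers, and these differences were not tested, since each condition has 1 library. Being higher than control in single cells and lower in cell groups was seen for 24.8% of all tested genes under low nitrogen and 20.4% under rotifers. As the log2 ratio to control in cell groups minus that in single cells, the rotifer values were -3.10 for ICL1, -2.70 for MAS1, -1.07 for ACS3 and -0.22 for CIS2. A value as low or lower was found for 0.523% of all tested genes in the case of ICL1 and 0.891% for MAS1, but for 10.4% in the case of ACS3 and 38.2% for CIS2. The low-nitrogen values were -3.88 for ICL1, -3.00 for MAS1, -2.57 for PCK1, -1.67 for ACS3 and -0.91 for CIS2, with shares of 0.113% for ICL1, 0.460% for MAS1, 0.934% for PCK1, 3.66% for ACS3 and 14.0% for CIS2. All of them rest on the same pair of control libraries. The abundant reference transcript Cre06.g278222 also lay above control in single cells and below it in cell groups under both treatments. It had 5009, 5342 and 3731 CPM in single cells under rotifer, low nitrogen and control, against 6822, 4513 and 6886 CPM in cell groups. The single-cell control was its lowest library. The part of the control libraries in these values was not tested.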

How the results depend on the processing

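With the Wald test of DESeq2, 1 of the 5 genes (PCK1) passed between morphotypes, among 1732 genes called, and 85 and 49 genes passed for rotifers and low nitrogen against control. Scaling by DESeq2 size factors and leaving out the filter changed the call of none of the 5 genes. For the ratios of 2 libraries, where this scaling was chosen after seeing the data, it moved 1 count past 2-fold, that of low nitrogen against rotifer in single cells, with 1 of the 5 genes (PCK1) at least 2-fold lower instead of 0. No result that turned had passed the test. MAS1 was -0.030 between morphotypes without the treatment covariate. CIS2 under rotifers was 0.0053 with DESeq2 size factors and with the Wald test, 0.0075 without the filter, 0.0067 with limma and 0.0046 without the morphotype covariate. Under low nitrogen without that covariate, PCK1 was 0.019 and ACS3 0.12.

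Leaving out each library in turn gave 0 to 3 of the 5 genes and 211 to 2120 genes in all between morphotypes, 0 to 3 and 0 to 1119 for rotifers, and 0 to 2 and 0 to 720 for low nitrogen. The highest value came each time without the control library of cell groups. For rotifers and low nitrogen that fit has 1 control library, so its counts are not read as tests. Between morphotypes, log2 fold changes then ran from -2.07 to -0.09 for ICL1, -0.81 to 0.74 for MAS1, -2.16 to -0.82 for PCK1, -1.12 to -0.23 for ACS3 and -0.45 to 0.055 for CIS2. For rotifers they ran from -0.65 to 2.88 for ICL1, -0.47 to 2.43 for MAS1, -0.076 to 2.04 for PCK1, -0.82 to 0.59 for ACS3 and -0.27 to 0.34 for CIS2. For low nitrogen they ran from -1.18 to 2.33 for ICL1, -1.03 to 1.84 for MAS1, -1.52 to 0.57 for PCK1, -0.71 to 0.68 for ACS3 and -0.57 to 0.23 for CIS2. Depth was no close limit, since the lowest count of a member was 991. With 1 library per condition, variation between cultures could not be estimated.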
